A study of Danio rerio with 40 samples.

Results

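Complement and acute phase genes were followed across 40 single cells of the adult zebrafish heart. The set held 6 genes of the 33737 in the deposited table, taken by symbol: c4, c4b, c7a, cfd, CLU and tfa. They were selected on their CPM levels in these same cells and on their correlations with each other, so their levels, the cells in which they were high and their correlations are descriptions, with no test and no p-value. The cells came from ventricles of fish of the EK strain, 6 months old, that carried tcf21:nucEGFP, a nuclear green fluorescent reporter driven by tcf21 sequences, a gene used to mark the epicardium. They were sorted for green fluorescence and for exclusion of the dead-cell dye propidium iodide, then captured and amplified on the Fluidigm C1, whose microfluidic chambers take 1 cell each. The labels give 1 group, no injury, treatment or control, and no animal or day for any cell, so the 40 cells count as 1 sample.

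Complement is a set of plasma proteins that tag and lyse targets in a chain of cleavages. In the classical pathway, C1q bound to a target leads to cleavage of C4 and then of C3, the central component; in the alternative pathway, factor D cleaves factor B. Both branches end in a pore built from C5b, C6, C7, C8 and C9, and clusterin is among the proteins that hold this assembly in check. Transferrin carries iron in plasma. The liver is the main source of most of these proteins in mammals, where several are called acute phase proteins because their plasma level changes with inflammation, and fibroblasts and other stromal cells are known to make part of the set.

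Levels were expressed as CPM, the expected reads of a gene in every 1000000 expected reads of its cell. A gene was called detected at 5 or more expected reads, on at 50 CPM or more, and high at 1000 CPM or more, which is 0.1% of a cell's reads. Total expected reads ranged from 340293 to 5695770 per cell. The 25 cells with at least 2000 genes detected, called kept cells here, were used for shares of cells with detection and for correlations, and levels are given for all 40. Gene lengths of the build used were not at hand, so CPM values are compared between cells for 1 gene at a time. Counts of cells at a fixed level, and sums over genes, are given for several genes side by side. These can depend on gene length too, so differences between genes in them are not read as differences in abundance. TCF21, the gene behind the reporter, had a median of 321 CPM over the 40 cells. Some libraries went against the label: TCF21 stood at 1.009 CPM in cell 33, 2.38 CPM in cell 7 and 0.603 CPM in cell 11. Cell 7 gave 16.9% of its reads to cardiomyocyte markers, cell 33 gave 16.4%, cell 18 gave 0.927% and cell 27 gave 0.251%. The cardiomyocyte gene MYL7 stood at 2107 CPM in cell 18 and 2224 CPM in cell 27. TCF21 stood at 68.7 CPM in cell 18 and at 2013 CPM in cell 27. Of 10 cardiomyocyte markers, 7 were detected in cell 18 and 3 in cell 27. Cell 11 gave 3.25% to macrophage markers. Cell 40 had 10792 genes detected, beside a median of 2153.5 over all cells. It gave 0.114% of its reads to macrophage markers and 0.339% to cardiomyocyte markers.

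Each of the 6 genes was on in some cells and near 0 in others. Of the 6, c4 was on in 27 of 40 cells, CLU in 20, c7a in 18, cfd in 14, and c4b and tfa in 8 each. At the high level the counts were 16 cells for c4, 17 for CLU, 10 for c7a, 5 for cfd, 5 for tfa and 2 for c4b. Thus 5 of the 6 genes were high in at least 5 of the 40 cells, a level that 1.05% of all genes in the table reached. Since the genes were chosen for their levels in these cells, this share is background and not a result.

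**Figure D1:**
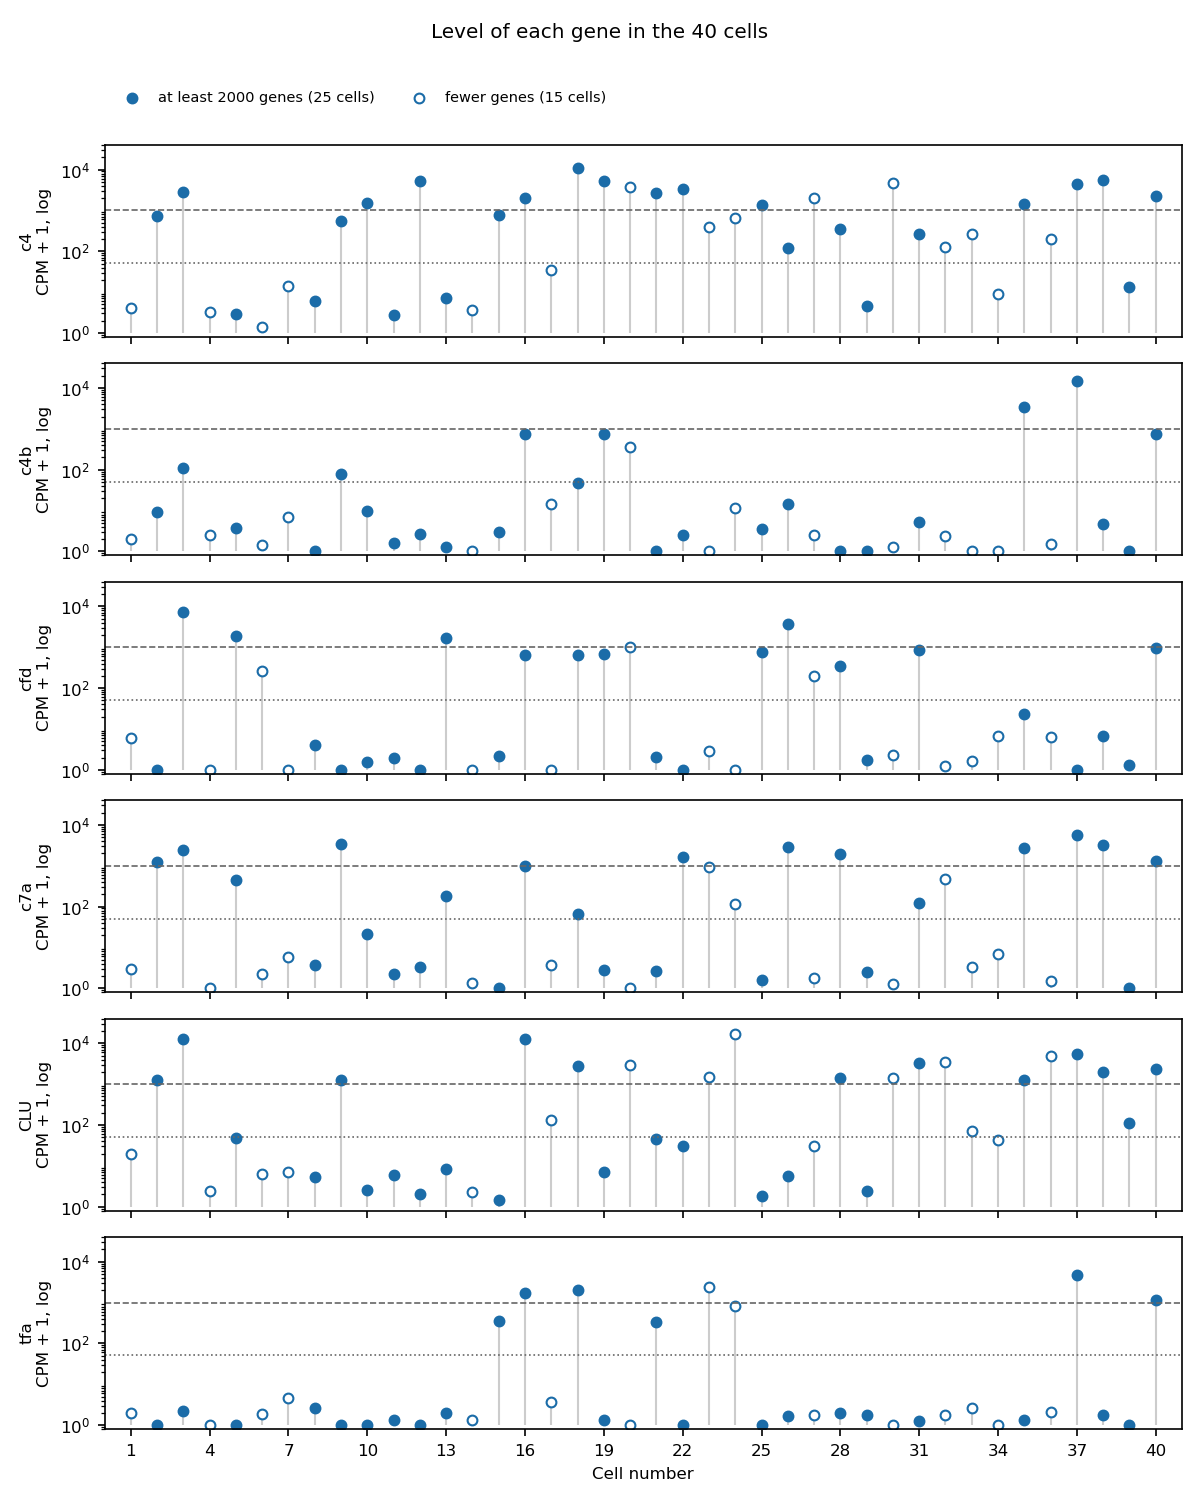
Level of c4, c4b, cfd, c7a, CLU and tfa in cells 1 to 40. The vertical axis is CPM + 1 on a log scale, filled points are the 25 cells with at least 2000 genes and open points the other 15, the dotted line is 50 CPM and the dashed line 1000 CPM. The 8 cells with tfa on stand far above the other 32, which do not exceed 3.57 CPM.

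c4 (ENSDARG00000015065) encodes complement component 4, the protein cleaved after C1q binds. It ranged from 0.415 CPM in cell 6 to 10749 CPM in cell 18, with a median of 473 CPM over 40 cells. After cell 18, the next highest were cells 38 (5414 CPM), 19 (5195 CPM) and 12 (5178 CPM). In the 25 kept cells the mean was 2048 ± 2561 CPM (SD over cells), so the spread exceeded the mean. c4 was detected in 25 of 25 kept cells (100%, with Wilson 95% limits of 86.7 and 100), and in 36 of all 40. Detection in 90% or more of the kept cells was met by 1.43% of all genes in the table, and by c4 alone of the 6. It was on in fewer, 19 of the 25. In the 13 cells below 50 CPM, c4 had a median of 7 reads and was at 0 in none. The source of these few reads was not tested, and intervals cover the counting of cells only. In cell 33, which carried cardiomyocyte transcripts, c4 was on at 257 CPM, while cell 7 had 13.05 CPM.

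c4b (ENSDARG00000038424) is a second zebrafish C4 gene. It was detected in 18 of 25 kept cells (72%, 52.4 to 85.7) but was on in 7 of them, and its median over 40 cells was 1.88 CPM. Cell 37 had 14804 CPM and cell 35 had 3381 CPM. Next came cells 19 (767 CPM), 16 (757 CPM), 40 (738 CPM) and 20 (355 CPM). Cell 20 was not a kept cell, with 374 genes detected and 44.1% of its reads on mitochondrial genes. It is also counted as high for c4 (3741 CPM), cfd (1023 CPM) and CLU (2864 CPM). Cell 37 alone held 69.2% of all c4b reads of the series. Thus the mean of 829 ± 2994 CPM in kept cells rests largely on 1 cell. All 8 cells with c4b on also had c4 on, while c4b was on in 29.6% of the 27 cells with c4 on. The authors' estimate divides reads that match several genes, and 28 of 40 c4 values and 13 of 40 c4b values were not whole numbers. Of the 16 cells with c4 high, 7 had c4b below 5 CPM, cell 12 among them with 1.72 CPM.

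cfd (ENSDARG00000039579) encodes complement factor D, the serine protease that cleaves factor B in the alternative pathway. It was detected in 15 of 25 kept cells (60%, 40.7 to 76.6), with a median of 2.47 CPM over 40 cells and a mean of 781 ± 1595 CPM in kept cells. Cell 3 was highest with 7216 CPM, followed by cells 26 (3728 CPM), 5 (1932 CPM) and 13 (1719.6 CPM). No cell lay between 21.9 CPM and 196 CPM, so the 14 cells with cfd on formed a separate upper range. cfd had 0 reads in cell 37, the cell with the highest c4b, c7a and tfa.

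c7a (ENSDARG00000042172) encodes complement component 7, which anchors the terminal pore in the membrane. It ranged from 0 to 5719 CPM with a median of 5.32 CPM, and was detected in 20 of 25 kept cells (80%, 60.9 to 91.1). All 10 cells with c7a high were kept cells. They were led by cell 37, then by cells 9 (3457 CPM), 38 (3127 CPM), 26 (2935 CPM) and 35 (2738 CPM). The mean in kept cells was 1131 ± 1516 CPM. Its largest break between neighbouring values, from 19.8 to 66.2 CPM, was narrower than the median break of the genes tested for correlation.

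CLU (ENSDARG00000010434) encodes clusterin, a secreted chaperone that binds terminal complement proteins. It had reads in every cell, from 0.457 CPM in cell 15 to 17026 CPM in cell 24, with a median of 58.8 CPM. Cells 3 and 16 followed with 12829.6 CPM and 12614 CPM, then cell 37 with 5438 CPM. No cell lay between 129 CPM and 1258 CPM, and 17 cells stood above that break. Unlike c7a, CLU was high in cells with few genes detected too: 6 of the 17 were not kept, with cells 24, 36 and 32 at 17026, 4963 and 3467 CPM. Cell 24 had 37.1% of its reads on mitochondrial genes, and cell 20, also high for CLU, had 44.1%. Their CPM of any other gene thus rests on the rest of the library. CLU was detected in 21 of 25 kept cells (84%, 65.3 to 93.6), with a mean of 1863 ± 3538 CPM.

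tfa (ENSDARG00000016771) encodes transferrin-a, the iron carrier. It had the widest break of the 6 genes. It was on in 8 cells: 37 (4649 CPM), 23 (2382 CPM), 18 (1992 CPM), 16 (1687 CPM), 40 (1136 CPM), 24 (801 CPM), 15 (361 CPM) and 21 (327 CPM). At the high level 3 of its 5 cells remain without cells 18 and 40, which are set apart above. In the other 32 cells it did not exceed 3.57 CPM or 5 reads, and 12 of them had none. The break between 3.57 and 327 CPM spanned 6.17 on the log2(CPM + 1) scale. tfa was detected in 6 of 25 kept cells (24%, 11.5 to 43.4), with a mean of 406 ± 1037 CPM. Among 2108 genes detected in at least 8 kept cells at a mean of 10 CPM or more, the largest break had a median of 1.98. Breaks at least as wide as that of CLU were found in 13.1% of them, and the shares were 16.2% for cfd, 42.9% for c4b, 60.4% for c4 and 65.3% for c7a. tfa is not among these genes, since it was detected in 6 kept cells, so it has no such share.

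Cells differed in how many of the 6 genes they had on. In 8 cells none was on, in 5 cells 1, in 10 cells 2, in 5 cells 3, in 7 cells 4, in 3 cells 5 and in 2 cells, 16 and 40, all 6. The genes that were on alone were c4 in cells 10 and 12, cfd in cell 6, and CLU in cells 17 and 39. At the high level, cell 37 had 5 of the 6 genes, and cells 3, 35 and 40 had 4. Summed over the 6 genes, cell 37 gave 3.51% of its reads to them, cell 3 gave 2.55%, cells 16 and 24 gave 1.86% each and cell 18 gave 1.62%, beside a median of 0.361% over 40 cells. Cells with none on included 7 and 11, where TCF21 was not detected, and also 8, 4 and 34, where TCF21 stood at 976, 847 and 4132 CPM. Of these 3, cell 8 alone was a kept cell. Cell 4 had 808 genes detected, and cell 34 had 399 and gave 47.6% of its reads to mitochondrial genes. In cell 34 the macrophage marker gene cd74a stood at 820 CPM. It was the only macrophage marker detected there and held the whole 0.082% of reads on that list.

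tfa was on in 8 cells, and all of them had c4 on, while 29.6% of the c4 cells had tfa on. Of the 8 cells with c4b on, 7 had CLU on (87.5%, and 35% of the CLU cells). c7a and CLU were on together in 14 cells, 77.8% of the c7a cells and 70% of the CLU cells. Against this, cfd and CLU were on together in 7 cells, 50% of the cfd cells and 35% of the CLU cells. c4 was on in 27 of 40 cells, so a large share of any gene's cells falls among them whatever the relation.

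**Figure D2:**
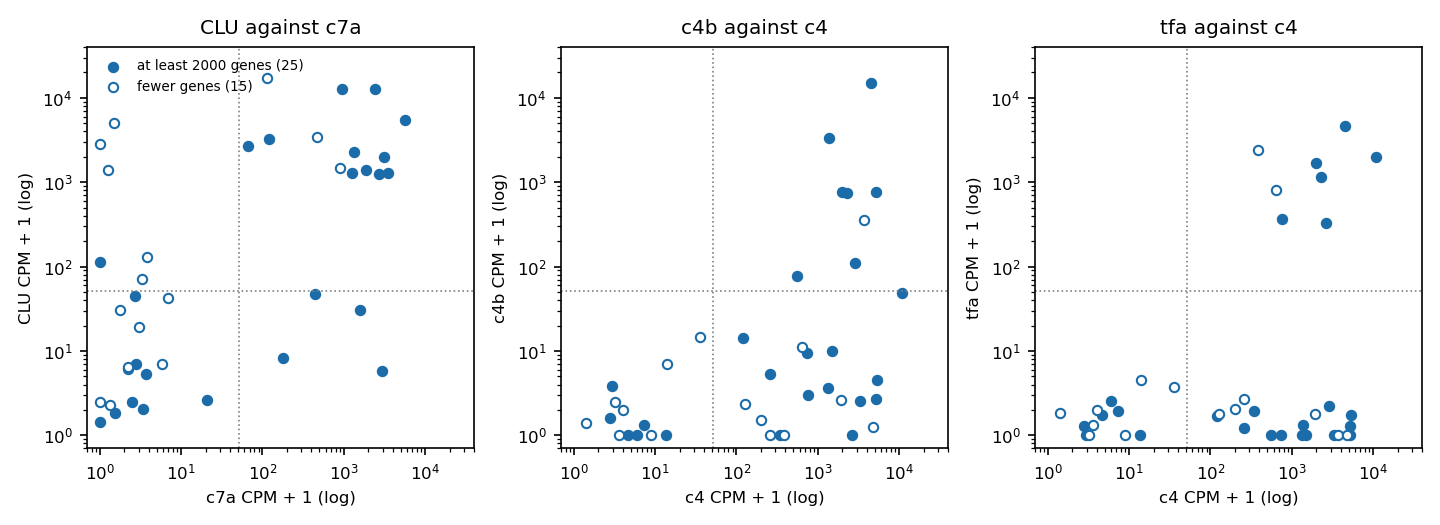
Level of CLU against c7a (left), of c4b against c4 (middle) and of tfa against c4 (right) in 40 cells, both axes CPM + 1 on a log scale. Filled points are kept cells, open points the others, and dotted lines mark 50 CPM. The upper left fields of the middle and right panels are empty: 0 cells had c4b or tfa on without c4.

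Across the 25 kept cells, the Spearman correlations of the 15 pairs had a median of 0.27, with 14 of 15 above 0. The median over all 2220778 pairs of the 2108 genes detected in at least 8 kept cells at a mean of 10 CPM or more was 0.04. Of those pairs, 1254369 were above 0. All 6 genes but tfa passed that filter. The highest pairs were c7a with CLU (0.62), c4b with c7a (0.55), c4 with c4b (0.50) and c4b with CLU (0.49). The first 2 of these, and no other pair, reached 0.5 before rounding, a value that 1.8% of all pairs reached. The pairs were among the grounds on which the genes were chosen, so nothing is read from that. The points share their libraries and differ in depth and in genes detected. With the number of genes detected held fixed, the highest 4 pairs stood at 0.63, 0.53, 0.50 and 0.51. With each kept cell left out in turn, c7a with CLU ranged from 0.57 to 0.70 and c4b with c7a from 0.49 to 0.63.

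Among the cells of the 40 with both genes of a pair on, a correlation was computed for the 12 pairs with at least 6 such cells. It was lower than over the kept cells for 8 pairs and higher for 4. These sets of cells differ, since cells with both genes on were taken from all 40. The cut at 50 CPM also narrows the range of both genes, so nothing is read from this difference. c7a with CLU had -0.36 among 14 cells, c4 with CLU 0.08 among 18, and c4 with c4b 0.38 among 8. cfd had 0.46 with CLU among 7 cells and 0.38 with c7a among 9. Over the kept cells, cfd had -0.11 with c4 and 0.08 with c7a, though it was detected in only 15 of these 25. As Pearson of log2 values these 2 correlations were 0.01 and 0.27. With values under 5 reads set to 0 they were -0.04 and 0.22. Correlations of tfa were weak, at most 0.38 with CLU, and its ranks in 19 kept cells rest on fewer than 5 reads. When values under 5 reads were set to 0, tfa with c4 was 0.42 and tfa with cfd was -0.02, against 0.27 and 0.29 with all values.

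**Figure D3:**
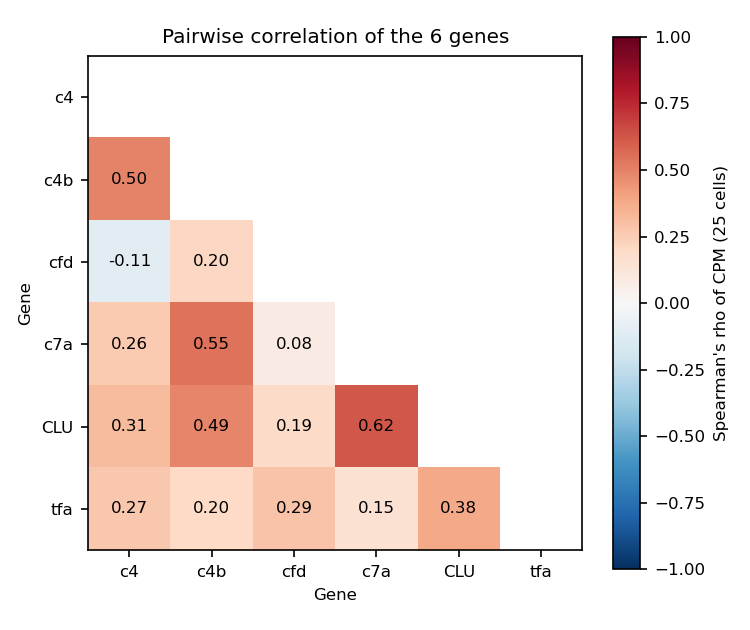
Spearman correlation of CPM over the 25 kept cells for each pair of the 6 genes. Red is positive and blue negative, and the value is printed in each field. c7a with CLU has the highest value, 0.62, while cfd with c4 is the only pair below 0.

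Partner genes were ranked by the Spearman correlation of their CPM with each member over the 25 kept cells, among 2108 genes. For CLU, 2.04% of genes reached 0.5. The 5 highest with a symbol were the matrix proteoglycan gene DCN (0.75), pcolcea, an enhancer of procollagen processing (0.70), the metalloproteinase inhibitor gene TIMP2 (0.65), RGS7BP (0.65) and REPS1 (0.65). For c7a, 1.85% reached 0.5, led by the scavenger receptor gene SCARA3 (0.79), the laminin gene LAMB1 (0.77), the dermatopontin gene DPT (0.70), RAPH1 (0.69) and the chemokine gene ccl25b (0.65). For c4, 1.23% reached 0.5, led by aebp1b (0.73), a gene of a collagen-binding secreted protein in mammals, the transcription factor gene foxo3b (0.67), the lipid phosphatase gene PLPP1 (0.64), DCN (0.61) and cnbpb (0.59). For c4b, 1.9% reached 0.5, led by the laminin gene lama4 (0.67), the ribosomal genes RPS4Y2 (0.67), RPL4 (0.65) and RPL15 (0.63), and SERP1 (0.64), which encodes a protein of the endoplasmic reticulum.

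For cfd, 1.47% of genes reached 0.5, and the 5 highest with a symbol were sona (0.71), NABP1 (0.66), REEP3 (0.63), srrm1 (0.62) and FOXP4 (0.61). None of these is a matrix gene. For tfa, 0.949% reached 0.5, led by the transporter gene slco2b1 (0.63), SPTLC2 (ENSDARG00000018976, 0.63), the phosphatase gene DUSP8 (0.61), fam32a (0.61) and the tight junction gene TJP1 (0.59). The gene at the opposite end for tfa, macf1a, stood at -0.64, slightly farther from 0 than the highest. With values under 5 reads set to 0, 1 of the 10 highest partners of tfa stayed among its 10 highest, so this ranking rests on ranks among a few reads. At the lower ends of the other rankings stood si:dkey-177p2.6 (-0.67) and si:ch73-240m14.2 (-0.66) for c4, pstpip2 (-0.57) and NFYA (-0.56) for c4b, and si:dkey-15h8.13 (-0.67) and illr3 (-0.65) for c7a. For cfd they were rap1gap2b (-0.66) and rab11fip3 (-0.65), for CLU si:dkeyp-89h8.1 (-0.59) and ccdc50b (-0.59), and for tfa, after macf1a, a second SPTLC2 copy (ENSDARG00000074287, -0.61). Some of these had low means in kept cells, among them si:dkeyp-89h8.1 (10.2 CPM), rab11fip3 (11.9 CPM) and NFYA (12.2 CPM). With values under 5 reads set to 0, NFYA with c4b was -0.37 and macf1a with tfa -0.16. In that setting rab11fip3 with cfd was -0.68 and si:dkeyp-89h8.1 with CLU -0.57. Genes at or below -0.5 numbered 10 for c4, 9 for c4b, 8 for c7a, 20 for cfd, 18 for CLU and 10 for tfa, against 26, 40, 39, 31, 43 and 20 at or above 0.5 for the same genes in that order. With each kept cell left out in turn, at least 4 of the 10 highest partners of c4b, 5 of those of c4, cfd, CLU and tfa, and 6 of those of c7a stayed among the 10 highest. Over all 40 cells 0 of the 10 stayed for c4b, 4 each for c4, c7a and CLU, 5 for cfd and 7 for tfa, and without cells 11, 18 and 40, 3 stayed for c4.

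DCN reached 0.5 with 4 of the 6 genes, which were c4, c4b, c7a and CLU, and stood at 0.04 with cfd and 0.30 with tfa. It was the only gene to reach 0.5 with 4. SPARC, another matrix gene, reached it with c4b (0.63), c7a (0.57) and CLU (0.57), and ccl25b with c4b (0.59), c7a (0.65) and CLU (0.54). The other genes that reached 0.5 with 3 of the 6 each included cfd or tfa, and none of them is a matrix gene. REPS1 did so with CLU (0.65), c4b (0.54) and cfd (0.53), SET with CLU (0.61), tfa (0.59) and c7a (0.59), and DUSP8 with tfa (0.61), c7a (0.59) and CLU (0.54). The 6 genes were chosen in part for their correlations with each other, so nothing is read from partners that they share.

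DCN and SPARC are also on the fibroblast marker list, so that list is not separate from them. Of its 12 measured genes, 9 passed the filter. Their median correlation was 0.47 with c7a, 0.39 with CLU, 0.37 with c4b and 0.33 with c4, but 0.07 with cfd and 0.05 with tfa, beside medians from 0.00 to 0.04 over all genes tested. With values under 5 reads set to 0, the medians with cfd and tfa were 0.17 and 0.14, and tfa had 0.13 with the number of genes detected held fixed. Of the 9, all were above 0 with c4 and with CLU, 8 with c4b and c7a, 7 with tfa and 6 with cfd. Among all 2220778 pairs of genes that passed the filter, 1254369 were above 0, and no difference was tested. Of 10 cardiomyocyte markers, 3 passed the filter: MYL7 and actc1a, on in 2 kept cells each, and tpm4a, on in 13. Their medians were 0.42 with CLU, 0.37 with c7a, 0.36 with tfa, 0.27 with c4, 0.21 with cfd and 0.12 with c4b. With values under 5 reads set to 0, these were 0.46, 0.40, 0.12, 0.22, 0.36 and 0.13 in the same order. The 6 epicardial markers that passed had medians of 0.09 with c4, 0.14 with c4b, 0.07 with c7a, 0.29 with cfd, -0.01 with CLU and 0.22 with tfa. The 6 ranged from -0.18 to 0.49 with tfa and from 0.01 to 0.36 with cfd. TBX18, an epicardial transcription factor gene, was the highest of them with both. With values under 5 reads set to 0, the medians were 0.29 with cfd and 0.18 with tfa.

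Per cell, the share of reads on the 6 genes correlated with the share on fibroblast markers at 0.71 (Spearman, 25 kept cells; Pearson of log2 values 0.82). It was 0.70 without cell 40 and 0.65 without the 2 cells farthest from the median share of fibroblast markers. Gene by gene, the correlation with that share was 0.67 for CLU, 0.66 for c7a, 0.60 for c4 and 0.51 for c4b, but 0.19 for tfa and 0.02 for cfd. As Pearson of log2 values it was 0.68, 0.70, 0.68, 0.52, 0.25 and 0.22 in the same order. The correlation of the 6 genes summed with the share on heat shock genes was -0.53, and -0.40 without the 2 cells farthest from the median there. Gene by gene it ranged from -0.56 for c4b to -0.08 for cfd and -0.05 for tfa. As Pearson of log2 values it was -0.51 for c4b, -0.31 for cfd and -0.40 for tfa. Shares of reads compete within a cell, and heat shock genes held from 2.23% to 22.9% of the reads of kept cells. The share on cardiomyocyte markers had a median of 0.0115% in kept cells and was highest in cell 18, at 0.927%. It correlated with the 6 genes at 0.52, but at 0.28 as Pearson of log2 values. Of the genes in this share, tpm4a was on in 13 kept cells, and MYL7 and actc1a in 2 each. The share on macrophage markers had a median of 0 in kept cells and was highest in cell 11, at 3.25%, beside 0.114% in cell 40. Its correlation with the 6 genes summed was -0.16, and -0.48 as Pearson of log2 values. Without the 2 cells farthest from the median share of macrophage markers, the Spearman value was -0.11. The part of ties at 0 and of cell 11 in these values was not tested. With mitochondrial share, the correlations of the 6 genes taken one by one ranged from -0.22 to 0.04, and with genes detected from -0.18 to 0.24. The part of matrix level, heat shock reads, cardiomyocyte transcripts or library quality in the levels of the 6 genes was not tested.

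**Figure D4:**
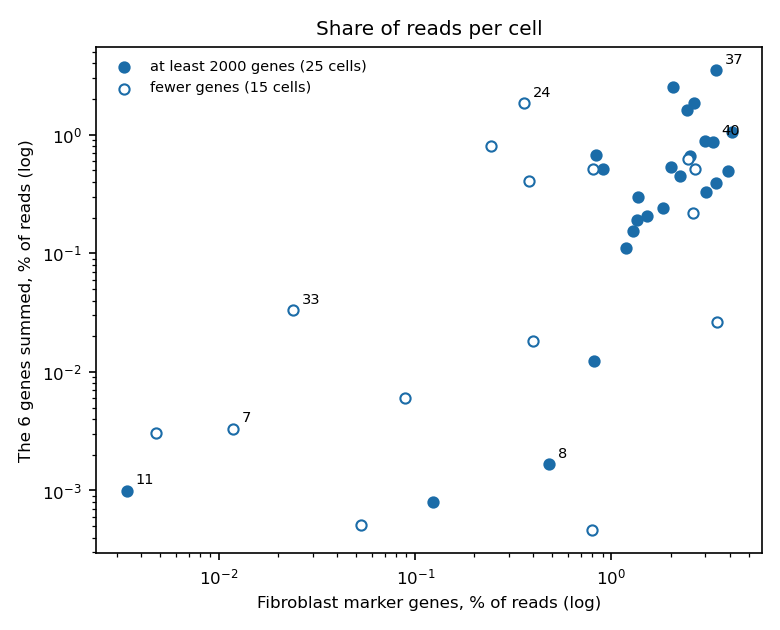
Share of reads on the 6 genes summed against share of reads on fibroblast marker genes, both in percent on log scales, in 40 cells. Filled points are kept cells and open points the others, and some cells are numbered. Cell 37 stands at the top right with 3.51%, while cell 11, which held macrophage markers, lies at the lower left.

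The other genes of the pathway came from 5 lists of complement and acute phase genes. They hold 45 measured genes besides the 6. Of these 45, 1 met the detection level in 90% or more of the kept cells, 6 met it in 10 to 90%, 6 in a smaller share and 32 nowhere among them. Of all 33737 genes, 19027 met it in no kept cell. Of the 45, 5 were on in at least 1 of the 40 cells, namely c1qb, c1qc, cfp, c7b and itgb2. With the 6 genes included it was 11 of 51, beside 25.5% of all genes. The 45 exclude genes chosen for their levels in these cells, which lowers their share, so nothing is read from it. Of the 75 symbols on these lists, 24 had no match among the gene symbols, so those genes were not looked at. Most of the 45 measured genes were thus detected in no kept cell, as were most of all 33737 genes.

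In the classical pathway, the C1q genes c1qb and c1qc were on in cell 11 alone, at 1245 and 1545 CPM. That cell held macrophage markers, a list that contains both genes, and its c4 stood at 1.81 CPM. Cell 40, in which c4 was high at 2292 CPM, also held C1q reads, with 43.4 CPM of c1qa, 14.7 CPM of c1qb and 22.6 CPM of c1qc. MASP1, MASP2 and mbl2, of the lectin pathway, were detected in 0 of 25 kept cells, which allows a share of cells of up to 12% each.

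Around C3 and the alternative pathway, c3a.1 to c3a.6 and c3b.1 and c3b.2 were on in no cell, with at most 39.9 CPM, reached by c3b.1 in cell 29. The factor B genes cfb and cfbl were detected in none. cfp, which encodes properdin, a stabiliser of the alternative pathway's convertase, was on in 5 cells. The highest were cells 18 (2032 CPM), 11 (865 CPM) and 2 (192 CPM). The 14 cells with cfd on thus had both factor B genes below the detection level.

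Of the terminal pathway, c5, c8a, c8g and c9 were detected in no kept cell, and c8b did not exceed 6.86 CPM. c7b, the other C7 gene, was on in 4 cells, highest in cell 35 with 236 CPM. The lists lacked the C6 genes c6.1 and c6.2, which were added with their values already known. c6.2 was on in 28 of 40 cells, with a median of 1282 CPM and 13126 CPM in cell 35, and was detected in 25 of 25 kept cells. c6.1 was on in 20 cells, with 2011 CPM in cell 18. All 8 cells with c4b on, and all 8 with tfa on, had both C6 genes on, and c6.2 correlated with c4b at 0.62. Of the genes of the pore looked up here, those of C6 and C7 were on in some cells and those of C5, C8 and C9 in none.

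Among regulators and receptors, the C1 inhibitor gene serping1, the receptor genes C3AR1 and c5ar1 and the vitronectin copies (VTN) were detected in no kept cell. itgb2, an integrin chain of complement receptors on leukocytes, was detected in 25 of 25 but was on in only 2 of 40 cells. Among the 16 acute phase genes besides tfa, 0 were on in any cell, and 14 were detected in no kept cell, among them the fibrinogen genes fga, FGB and FGG, the ceruloplasmin gene CP and crp1 and crp2. The haptoglobin gene hp was detected in 6 kept cells with at most 30.02 CPM. Markers of hepatocytes, the classical source of these proteins, were detected in 0 of 25 kept cells for 11 of 11 measured genes and held at most 0.000147% of the reads of any kept cell. Of the 11, 8 are also on the acute phase or complement lists above, so 3 are further genes.

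**Figure D5:**
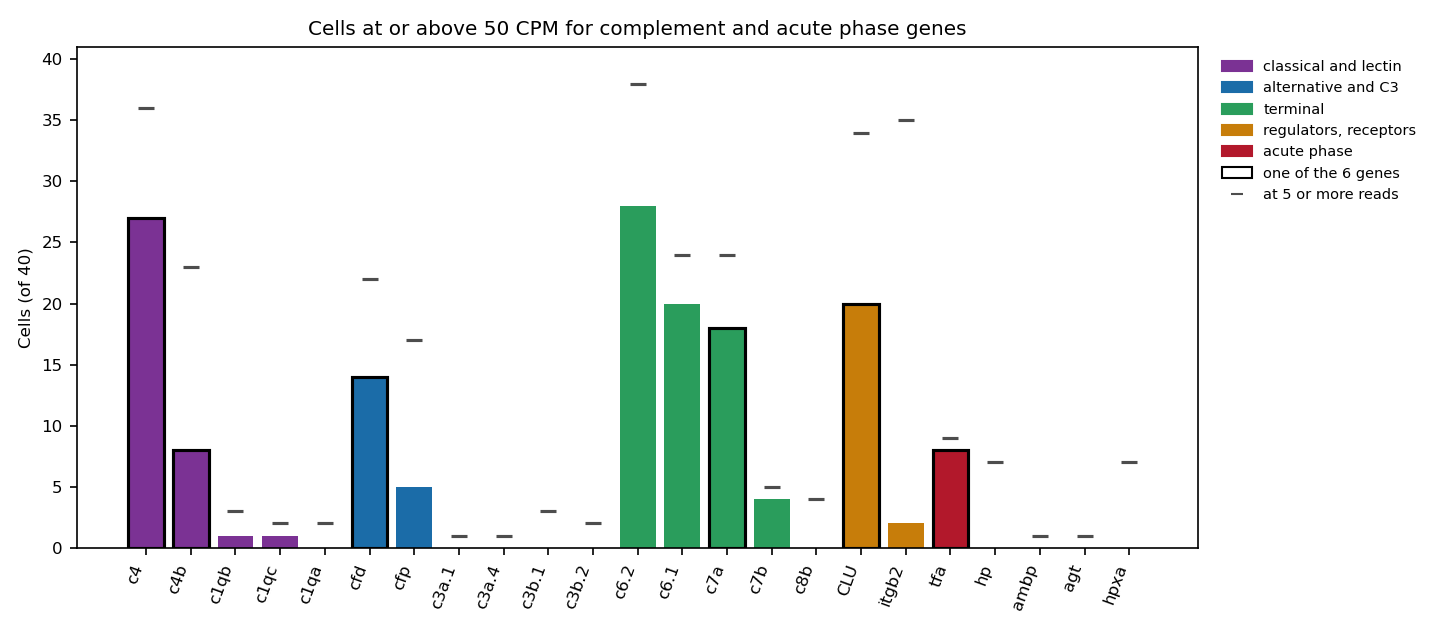
Number of the 40 cells at or above 50 CPM (bars) and at 5 or more reads (dashes) for complement and acute phase genes that were detected in at least 1 cell, by pathway step (colour). Outlined bars are the 6 genes. c6.2, c4, c6.1, CLU, c7a and cfd have the tallest bars, and the C3 genes have none.

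Genes of the pathways that act on acute phase genes in liver were looked at as well. Of 20 measured genes, 2 met the detection level in 90% or more of the kept cells, 13 met it in 10 to 90%, 4 in a smaller share and 1 nowhere among them. Over all 33737 genes the counts were 483, 6866, 7361 and 19027 in the same order, and no difference was tested. CEBPB, a transcription factor gene that acts on such genes in mammalian liver, was detected in 25 of 25 at 1543 ± 1459 CPM, and a SOCS3 copy (ENSDARG00000025428), a feedback inhibitor of cytokine signalling, in 25 at 2027 ± 1298 CPM. STAT3 was detected in 14 at 60.8 ± 131 CPM. Correlations of these genes with the 6 were mostly weak: the medians over the 12 that passed the filter ranged from -0.09 with tfa to 0.11 with cfd. The highest was CEBPD with c4 at 0.50, and the lowest CEBPB with tfa at -0.50.

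Among genes of iron handling, the ferritin gene fthl27 was on in 30 of 40 cells and fth1a in 17, while the transferrin receptor gene tfr1b was on in cell 22 alone, at 839.6 CPM. tfa itself was at 0 in that cell. The 4 iron genes that passed the filter had a median correlation of 0.13 with tfa.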

How the data were processed

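The deposited table holds expected counts per gene for each of 40 cells, estimated by the authors and not normalised. Bowtie2, RSEM 1.2.12 and the Zv9 build are named per the submitters' processing notes, without order, role or settings. Such counts divide reads between similar genes, so close copies are uncertain one by one. CPM were computed here from all genes of a cell. Symbols came from the supplied gene name table (21939 genes with one), and list symbols were looked up as spelled, next in any letter case, and last with the copy letter a or b dropped. The 6 genes, the lists and the thresholds were chosen with earlier results of these data known. Named are the 6 genes, members of the lists, and for each of the 6 genes the 5 highest and 2 lowest correlated genes with a symbol. Genes named outside this rule are said to be so or reached 0.5 with at least 3 of the 6. Cells were kept at 2000 genes with 5 or more reads. No doublet caller was run on 40 libraries, and cells 7, 11, 18, 33 and 40 were left out only as an alternative. Shares have Wilson 95% intervals, and a count of 0 cells allows 3 of the total. Reads carry no molecular identifiers. The code that ranks partners was run on simulated cells in which some genes shared a factor. Those cells were not built with the on and off levels of the 6 genes, so nothing about the partners named here is read from them. Alternatives changed the detection level, scaling, cells and correlation. Python 3.11.15, pandas 2.3.3 and scipy 1.17.1 were used. Sequences of the genes were not used here.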

Additional observations from a re-analysis of the deposited data

How the results depend on the processing

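Called from any read above 0, the share of kept cells was 92% for c7a, 80% for cfd, 100% for CLU and 68% for tfa. At 20 reads it was 84% for c4 and 40% for c4b, and at 50 CPM 76% for c4, 28% for c4b, 60% for c7a and 48% for CLU. Over all 40 cells c7a was at 60%, and with reads thinned to the shallowest kept cell c4b was at 52%. High cells at 500 CPM numbered 5 for c4b and 11 for cfd. With median-of-ratios scaling c4b was high in 4 cells. CLU was high in 11 kept cells, and tfa in 3 cells without cells 7, 11, 18, 33 and 40, an alternative chosen after seeing the data. Among the other 45 complement and acute phase genes, 10% or more of the kept cells were reached by 11 genes from any read and by 2 at 50 CPM, beside 7 at 5 reads. The median correlation of the 15 pairs was 0.37 as Pearson of log2 values, and 0.24 to 0.32 with each kept cell left out. Of the correlations of single pairs under alternatives, 29 moved by 0.1 or more and 91 by less, and none of those at 0.4 or above changed sign. The cause of these moves was not tested. No paired analysis was possible because the labels give 1 group. With 1 sample and no molecular identifiers, neither spread between fish nor amplification error can be given.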
